A study of Mus musculus with 8 samples.

Results

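The collagen chain genes of B16F10 mouse melanoma cells were taken as every gene whose symbol is Col, a type number, the letter a and a chain number, which gave 44 of the 55414 genes in the expression table. They comprised 11 chains of the fibrillar types, 6 basement membrane chains (type IV) and 27 others. Expression was measured by total RNA sequencing in 8 libraries, 2 in each of 4 groups, all collected after 24 h. WT cells and CypD KO cells were kept at 21% oxygen, and Control cells and cells labelled CypD OE at 1% oxygen. CypD KO cells carry a CRISPR/Cas9 disruption of Ppif, the gene for the mitochondrial protein cyclophilin D, and had been selected as puromycin-resistant clones. Control cells hold pcDNA without an insert, the CypD OE line was given pcDNA carrying Ppif, and both were picked as clones resistant to G418, so that clone and genotype cannot be told apart. How many clones each library represents was not stated, and nothing in the labels says whether the 2 libraries of a group came from separate cultures, so p-values measure the spread between libraries, which may be technical.

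Collagens are secreted proteins built from chains wound around each other into a triple helix. Fibrillar chains form the rope-like fibers of skin and stroma, type IV chains form the sheet beneath epithelia and vessels, and the remaining types attach to fibrils, anchor sheets or sit in membranes. Many types are built from a single kind of chain, while types I, IV, V, VI, VIII, IX and XI have several chain genes, whose levels are given here beside those of their partners. Melanoma cells, which derive from pigment cells, make several collagens themselves and also meet those laid down by fibroblasts.

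Levels are given in TPM, a library's transcript share per gene corrected for transcript length. Ppif stood at 50.7 and 49.99 TPM in the WT libraries, against 10.4 and 12.1 TPM where it was disrupted, a log2 difference of -2.07 (SE 0.07, limma adjusted p = 3.81e-06). It was 44.6 and 42.3 TPM in Control and 50.3 and 49.3 TPM in libraries labelled CypD OE, a difference of 0.19 that did not pass the test (adjusted p = 0.0794). In these RNA data, directions drawn from that label therefore rest on the label. At the protein level the paper reports western blots of the selected clones, with CypD lacking after knockout and overexpressed after transfection. All 9 pigment cell markers were detected, with sums of 15970 to 16077 TPM in WT, 12813 to 12981 in CypD KO, 20870 to 21432 in Control and 13797 to 13976 in CypD OE libraries. Of these markers 2 were higher and 6 lower in CypD KO than in WT, where 30.1% of all genes tested were higher and 18.4% lower. In CypD OE 1 was higher and 6 lower than in Control, where 19.0% and 18.3% of all genes were. In Control 8 of 9 were higher than in WT, where 12.1% of all genes were. Tyr was among the 2 that rose in CypD KO, from 37.4 and 41.25 TPM in WT to 167 and 147 TPM. Of 9 fibroblast markers 4 reached 1 TPM in any library, and their sums ranged from 19.4 to 20.8 TPM in WT, 35.3 to 39.5 in CypD KO, 23.02 to 25.3 in Control and 15.96 to 17.6 in CypD OE libraries. The defining markers Dcn and Dpt were listed at 0 in every library, Lum was at 0 except for 0.08 TPM in Control replicate 2, and Pdgfra lay between 0.48 TPM and 1.02 TPM. Postn, at 34.8 and 31.2 TPM, made up most of the CypD KO sum, and was 8.04 and 8.07 TPM in WT. The other 2 fibroblast markers that were tested fell, Pdpn from 8.16 and 9.71 TPM in WT to 2.55 and 2.26 TPM in CypD KO (adjusted p = 1.22e-04) and Pdgfrb from 2.5 TPM in both to 1.07 and 1.25 TPM (adjusted p = 0.00794). Endothelial sums stayed at or under 1.20 TPM. The macrophage sum was at most 3.84 TPM in WT and 22.3 to 23.4 in CypD KO, nearly all of it Cd68, while Ptprc did not exceed 0.02 TPM and Adgre1 was listed at 0. The part of these markers in the collagen values was not tested, and in such bulk libraries fewer cells of a kind and less RNA per cell cannot be told apart.

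A chain was tested where at least 2 of the 8 libraries reached 1 TPM, and 21 of the 44 chains did, against 24.4% of all genes. The tested chains comprised 6 fibrillar, 4 basement membrane and 11 other chains. Of the 23 remaining, Col13a1 and Col22a1 were listed at 0 in every library, and the highest value among the rest was 1.06 TPM, for Col18a1 in Control replicate 2. For the tested chains 1 TPM corresponded to about 29.5 to 130.1 sequenced fragments, depending on transcript length, so a value such as 0.20 TPM rests on few fragments. Fold changes are differences of log2(TPM + 1), which understate the change of chains near or under 1 TPM. The ratio of group means in TPM is given for Col1a1, Col12a1 and Col14a1 in CypD KO against WT. Other changes of low chains are to be read beside their TPM values.

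The 250 bases before the annotated start of a chain gene are shown, from RefSeq on GRCm38.p6, for Col1a2, Col5a1 and Col16a1, because these 3 had the highest levels among the chains with a window that differed between CypD KO and WT by over 1 on the log2 scale. All 3 lie on the + strand, Col1a2 at chr6:4505368-4505617, Col5a1 at chr2:27886175-27886424 and Col16a1 at chr4:130047590-130047839, and are written 5′ to 3′. Capitals mark matches to 3 motifs searched on both strands, namely ACGTG, the core letters of the element that hypoxia-inducible factors bind, CCAAT, the letters bound by NF-Y, and TGANTCA, the letters bound by AP-1.
Col1a2: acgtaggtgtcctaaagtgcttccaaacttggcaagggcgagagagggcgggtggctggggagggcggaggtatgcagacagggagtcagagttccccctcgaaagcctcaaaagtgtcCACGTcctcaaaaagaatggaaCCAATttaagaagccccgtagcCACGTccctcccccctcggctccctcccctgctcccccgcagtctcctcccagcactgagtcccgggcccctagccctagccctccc
Col5a1: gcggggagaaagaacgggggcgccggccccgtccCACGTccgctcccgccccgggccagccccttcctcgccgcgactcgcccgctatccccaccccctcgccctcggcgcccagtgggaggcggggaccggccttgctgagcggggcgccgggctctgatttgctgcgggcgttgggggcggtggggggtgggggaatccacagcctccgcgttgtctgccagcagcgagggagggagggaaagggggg
Col16a1: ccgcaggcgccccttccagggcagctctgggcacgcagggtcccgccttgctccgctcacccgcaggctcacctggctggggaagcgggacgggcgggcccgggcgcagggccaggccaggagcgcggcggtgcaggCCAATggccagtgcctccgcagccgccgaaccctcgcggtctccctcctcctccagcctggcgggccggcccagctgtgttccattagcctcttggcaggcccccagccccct
ACGTG occurred 2 times before Col1a2 and 1 time before Col5a1, in each case on the opposite strand, so that the printed strand reads CACGT. Before Col1a2 and before Col16a1 there was 1 CCAAT each. RefSeq windows were found for 17 of the 21 tested chains, in 18 windows, and Col1a1, Col9a3, Col12a1 and Col14a1 had none. ACGTG was present in 4 of the 18 windows, or 22.2%, against 16.6% of 32851 windows of the same length over all genes. CCAAT was present in 8, or 44.4%, against 33.8%, and TGANTCA in 0, against 6.75%. A match describes letters and not a bound site.

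Summed over all 44 chains, collagen transcripts amounted to 93.3 ± 3.93 TPM in WT, 184 ± 1.03 in CypD KO, 96.8 ± 2.05 in Control and 100.1 ± 2.75 in CypD OE libraries (SD, n = 2 each). The CypD KO sum was thus 1.97 times that of WT, while the other 3 groups lay close together. Fibrillar chains supplied 73.3% of the 90.8 TPM by which CypD KO exceeded WT, and the rises of Col1a1 and Col5a1 together came to 73.5 TPM. Fibrillar sums were 31.2 ± 1.76 TPM in WT, 97.8 ± 2.86 in CypD KO, 30.5 ± 0.537 in Control and 24.96 ± 2.93 in CypD OE. Basement membrane sums were 25 ± 1.80, 27.0 ± 0.262, 29.5 ± 0.948 and 35.7 ± 1.29 TPM in the same order. The remaining chains added up to 37.1 ± 0.375, 59.3 ± 1.56, 36.8 ± 2.46 and 39.5 ± 1.12 TPM. With 2 libraries against 2 an exact two-sided permutation test cannot give a p under 0.333, and these sums were not tested.

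**Figure D1:**
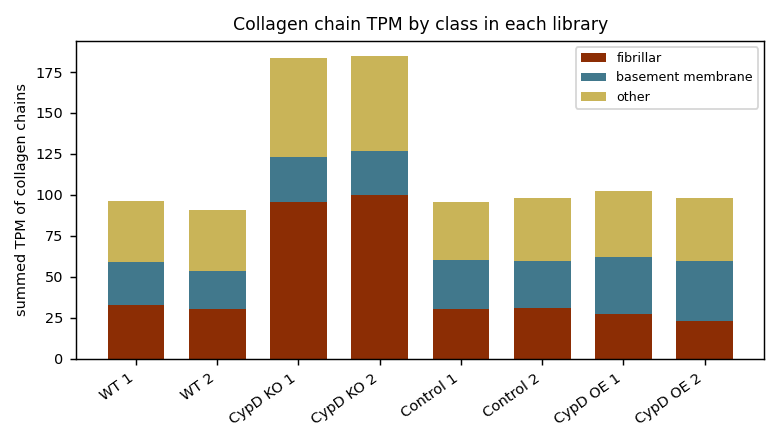
Stacked bars give the summed TPM of fibrillar, basement membrane and other collagen chains in each of the 8 libraries. Both CypD KO bars stand near 184 TPM, with a fibrillar segment near 97.8 TPM, and the other 6 bars stand between 90.5 and 102 TPM.

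CypD KO cells were compared with WT cells at 21% oxygen, where clone and genotype differ together. Of the 21 tested chains 11 rose and 5 fell at an adjusted p under 0.05, and 5 did neither. Among the 11, Col10a1, Col12a1 and Col20a1 reached 1 TPM in 2 libraries only when those of CypD KO were counted. Their entry among the tested chains, and in the median below, thus depended on the group where they were high. Col9a2, which was not called, likewise needed CypD KO replicate 1 to enter. Over all 13526 genes tested 30.1% rose and 18.4% fell, so changes in this comparison were common. The median difference of the tested chains was 0.44, beside 0.089 over all genes. With a filter of at least 5 TPM in 2 libraries, 4 chains rose and 4 fell, against 3488 and 2348 of all genes. When TPM were rescaled by median-of-ratios factors, the split over all genes went from 4066 higher and 2486 lower to 3187 higher and 3482 lower, and that of the chains to 9 higher and 6 lower.

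Among fibrillar chains 3 rose and 2 fell. Col1a1 (ENSMUSG00000001506, GRCm39 chr11:94827050-94843868, + strand, 51 exons), the major chain of type I collagen, was 2.22 and 1.66 TPM in WT and 38.5 and 41.1 TPM in CypD KO. The group means were 1.94 ± 0.396 and 39.8 ± 1.84 TPM (SD, n = 2), a ratio of 20.5 and a log2 difference of 3.80 (SE 0.21, adjusted p = 2.29e-05), the largest among the chains. Its partner Col1a2 (GRCm39 chr6:4504814-4541555, + strand, 52 exons), the other chain of type I collagen, moved the other way. Col1a2 was 9.03 and 6.87 TPM in WT and 1.09 and 2.17 TPM in CypD KO, a log2 difference of -1.79 (SE 0.27, adjusted p = 0.00176). The ratio of Col1a1 to Col1a2 was accordingly 0.246 and 0.242 in WT and 35.3 and 18.9 in CypD KO libraries, with no overlap. Col1a2 shares 1308 exonic bases with the noncoding RNA gene Gm66266 on the opposite strand, which has no value in the expression table. The part of reads from that stretch in the Col1a2 values was not tested. The usual type I molecule holds more Col1a1 than Col1a2 chains, and a form made of Col1a1 chains alone is also known.

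Col5a1 (GRCm39 chr2:27776397-27929526, + strand, 66 exons), the chain of type V collagen that takes part in starting type I fibrils, was 7.80 and 9.06 TPM in WT and 43.9 and 44.1 TPM in CypD KO. The difference was 2.26 (SE 0.13, adjusted p = 2.77e-05), and CypD KO libraries had more Col5a1 than any other chain. Its usual partner Col5a2 had a listed value of 0 in each WT library and 0.21 and 0.13 TPM in CypD KO, under the limit for testing. Col5a3, another type V chain, was 3.37 ± 0.339 TPM in WT and 2.63 ± 0.283 in CypD KO and did not pass (difference -0.27, adjusted p = 0.155).

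Col11a2, a type XI chain best known from cartilage, was 0.84 and 1.97 TPM in WT and 3.32 and 3.89 TPM in CypD KO. Its difference of 0.98 passed (adjusted p = 0.0435), with groups that did not overlap but WT libraries far apart. Left out one at a time, WT replicate 1, CypD KO replicate 1, CypD KO replicate 2, Control replicate 1 and Control replicate 2 each ended the call, with adjusted p = 0.206, 0.107, 0.162, 0.0629 and 0.0627, and without WT replicate 1 the difference was 0.63. Col27a1, another cartilage fibrillar chain, was 8.55 and 6.71 TPM in WT and 5.03 and 4.97 TPM in CypD KO, a difference of -0.52 (adjusted p = 0.0313). That call ended without WT replicate 1, CypD KO replicate 1 or CypD KO replicate 2 (adjusted p = 0.156, 0.103 and 0.11).

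**Figure D2:**
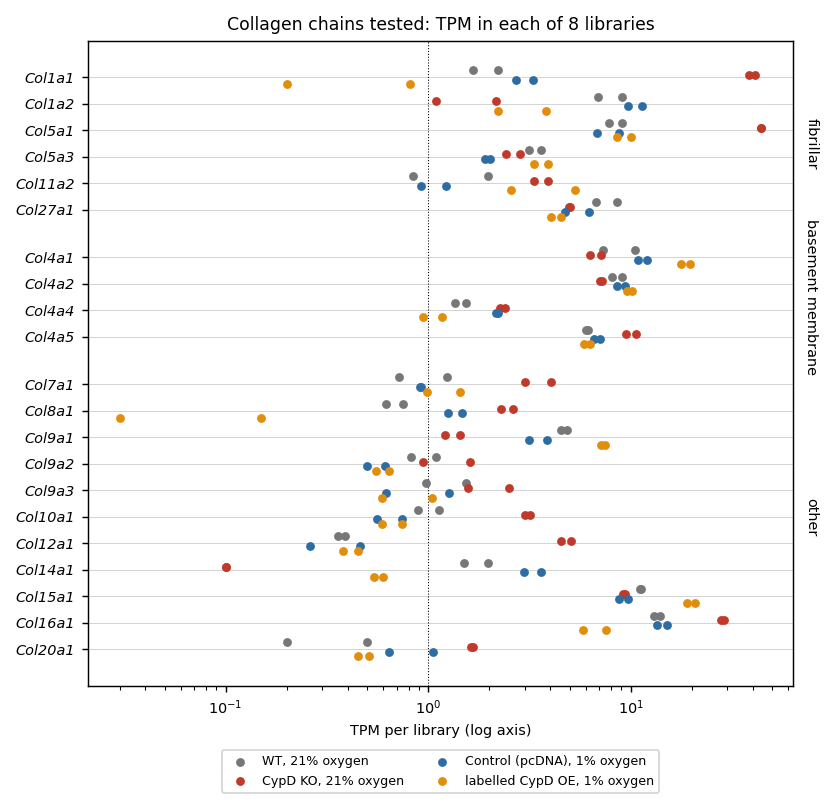
Each point is the TPM of 1 of the 21 tested chains in 1 library on a log axis, colored by group and ordered by class, and the dotted line marks 1 TPM. In CypD KO libraries Col1a1 at 38.5 and 41.1 TPM and Col5a1 at 43.9 and 44.1 TPM lie far above the other groups, while Col14a1 lies at 0.10 TPM.

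Of the 4 tested type IV chains 2 rose and 2 did not pass. Col4a5, of the minor type IV network, rose from 6.12 and 6.03 TPM in WT to 10.6 and 9.53 TPM in CypD KO (0.65, SE 0.10, adjusted p = 0.00168). Col4a4, of the same network, was 1.53 and 1.36 TPM in WT and 2.40 and 2.25 TPM in CypD KO (0.44, adjusted p = 0.0376). The Col4a4 call ended without WT replicate 1 or 2 (adjusted p = 0.0757 and 0.133), CypD KO replicate 1 or 2 (0.124 and 0.0854) or Control replicate 1 or 2 (0.0575 and 0.0575). Their partner Col4a3 was 0.09 and 0.05 TPM in WT and 0.70 and 0.83 TPM in CypD KO, and Col4a6 did not exceed 0.01 TPM. Col4a3 shares 843 exonic bases with the noncoding RNA gene C430014B12Rik on the opposite strand, which reached 2.39 TPM, so its low level is uncertain.

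Col4a1 and Col4a2, the common pair found in nearly all basement membranes, did not pass. Col4a1 was 10.5 and 7.28 TPM in WT and 6.26 and 7.15 TPM in CypD KO (-0.34, adjusted p = 0.124), and the difference was -0.58 without WT replicate 2 (adjusted p = 0.0165) and -0.11 without WT replicate 1 (adjusted p = 0.55). Col4a2 was 8.06 and 9.01 TPM in WT and 7.2 and 7.05 TPM in CypD KO (-0.23, adjusted p = 0.0894), and passed under median-of-ratios scaling (-0.33, adjusted p = 0.0256). The ratio of Col4a1 to Col4a2 was 1.3 and 0.808 in WT and 0.869 and 1.01 in CypD KO, so that the groups overlapped. Both genes lie head to head on chromosome 8, sharing 356 bases, 311 of them exonic. Col4a4 and Col4a3 share 159 bases on chromosome 1 in the same way. Whether the counting used strand is not given in the sources used here, so reads of such stretches may be divided differently between neighbors.

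A further 6 rises and 3 falls came from chains that are neither fibrillar nor type IV. Col12a1, which decorates type I fibrils and belongs to the fibril-associated group, was 0.39 and 0.36 TPM in WT and 5.08 and 4.52 TPM in CypD KO (2.08, SE 0.16, adjusted p = 9.47e-05, ratio of means 12.8). Col14a1, of the same group and also found on type I fibrils, was 1.98 and 1.51 TPM in WT and 0.10 TPM in both CypD KO libraries (-1.31, SE 0.17, adjusted p = 8.31e-04, ratio of means 0.0573). These fibril-associated chains thus changed in opposite directions. Col16a1, another member and the chain with the highest level in WT, rose from 13.9 and 13.1 TPM to 27.8 and 29.0 TPM (1.02, SE 0.12, adjusted p = 5.36e-04). Col20a1, of the same family, was 0.50 and 0.20 TPM in WT and 1.66 and 1.63 TPM in CypD KO (0.98, adjusted p = 0.00641). It shares 91 exonic bases with the noncoding RNA gene 9230112E08Rik on the same strand, which reached 4.95 TPM, so its low level is uncertain. With a pseudocount of 0.1 the log2 differences became 3.37 for Col12a1, -3.19 for Col14a1 and 2.04 for Col20a1.

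Type IX chains, which coat cartilage fibrils, did not move together. Col9a1 fell from 4.52 and 4.85 TPM to 1.44 and 1.21 TPM (-1.29, SE 0.13, adjusted p = 2.82e-04). Col9a2 was 1.09 and 0.82 TPM in WT and 1.61 and 0.94 TPM in CypD KO, with overlap, and Col9a3 was 0.98 and 1.53 against 2.52 and 1.57 TPM, and neither passed (adjusted p = 0.44 and 0.231). The ratio of Col9a1 to Col9a2 was 4.15 and 5.91 in WT and 0.894 and 1.29 in CypD KO. The ratio of Col9a2 to Col9a3, 1.11 and 0.536 in WT, was 0.639 and 0.599 in CypD KO.

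Col7a1, the chain of the anchoring fibrils of skin, was 0.72 and 1.24 TPM in WT and 4.04 and 2.99 TPM in CypD KO (1.19, SE 0.21, adjusted p = 0.00335). Col8a1, which forms short-chain networks in vessels and cornea, was 0.62 and 0.75 TPM in WT and 2.29 and 2.62 TPM in CypD KO (1.04, adjusted p = 0.00221, and 1.70 with a pseudocount of 0.1). Col10a1, known from growth plate cartilage, was 1.13 and 0.89 against 3.02 and 3.18 TPM (1.03, adjusted p = 0.00195). Col10a1 shares 651 exonic bases with Nt5dc1 on the opposite strand, which reached 17.7 TPM, so its low level is uncertain. Col15a1, a chain next to basement membranes, was 11.2 and 11.1 TPM in WT and 9.12 and 9.38 TPM in CypD KO, a small fall (-0.25, adjusted p = 0.0485). Leaving out Control replicate 1 or 2 or CypD OE replicate 1 or 2 gave adjusted p from 0.0502 to 0.0616, and leaving out WT replicate 1 or 2 or CypD KO replicate 1 or 2 gave 0.144, 0.116, 0.16 and 0.114.

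**Figure D3:**
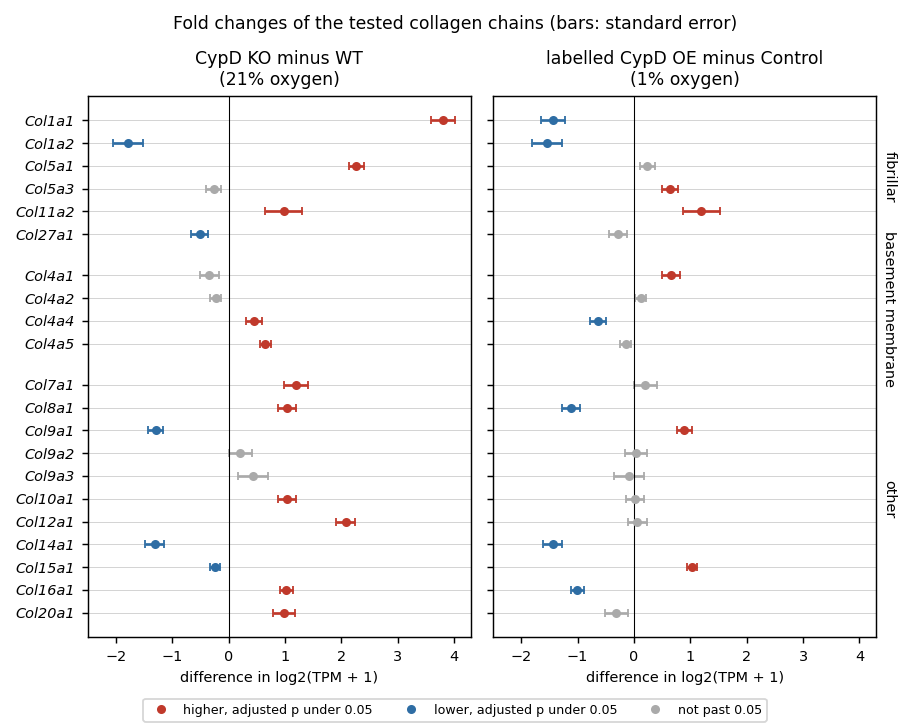
Points give the difference in log2(TPM + 1) of each tested chain with its standard error, for CypD KO minus WT on the left and labelled CypD OE minus Control on the right, and color marks chains past an adjusted p of 0.05. On the left 11 chains lie past the threshold above 0 and 5 below it, on the right 5 and 6.

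In the libraries at 1% oxygen, cells labelled CypD OE were compared with Control cells. Both lines had been selected in G418, and the difference of Ppif between them did not pass the test. Of the 21 tested chains 5 rose and 6 fell, and 10 did neither, against 19.0% higher and 18.3% lower over all genes tested. The median difference of the chains was 0.014, beside 0.0021 over all genes. Fibrillar chains were divided evenly, with 2 higher and 2 lower, as were the type IV chains, with 1 in each direction, and of the other chains 2 rose and 3 fell.

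Both type I chains fell. Col1a1 was 3.29 and 2.72 TPM in Control and 0.20 and 0.81 TPM in CypD OE libraries (-1.44, SE 0.21, adjusted p = 0.00237, and -2.57 with a pseudocount of 0.1). Col1a2 was 11.4 and 9.65 TPM in Control and 3.82 and 2.22 TPM in CypD OE (-1.54, SE 0.27, adjusted p = 0.00482). The ratio of Col1a1 to Col1a2 was 0.290 and 0.282 in Control, near that of WT, and 0.0524 and 0.365 in CypD OE, where the 2 libraries lay on either side of Control. Col5a1 overlapped between the groups, at 6.82 and 8.77 TPM in Control and 10.1 and 8.60 TPM in CypD OE (0.24, adjusted p = 0.209), and Col5a2 was at 0 in Control and at 0 and 0.01 TPM in CypD OE.

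Col5a3 was 2.02 and 1.91 TPM in Control and 3.33 and 3.92 TPM in CypD OE (0.64, adjusted p = 0.0113), a call that ended without Control replicate 2 or CypD OE replicate 2 (adjusted p = 0.053 and 0.0665). Col11a2 was 1.22 and 0.92 TPM in Control and 5.28 and 2.57 TPM in CypD OE (1.20, SE 0.32, adjusted p = 0.0262). Its call ended without Control replicate 1, Control replicate 2 or CypD OE replicate 1 (adjusted p = 0.0699, 0.111 and 0.124), and without the last the difference was 0.79. Col27a1 was 4.75 and 6.19 against 4.05 and 4.55 TPM and did not pass (-0.28, adjusted p = 0.207).

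Col4a1 alone of the common type IV pair passed. It was 11.99 and 10.9 TPM in Control and 17.7 and 19.5 TPM in CypD OE (0.66, SE 0.16, adjusted p = 0.018). Without Control replicate 1, Control replicate 2, CypD OE replicate 1 or CypD OE replicate 2 the adjusted p was 0.0506, 0.0869, 0.0545 and 0.0935, with differences from 0.59 to 0.72. Col4a2 was 9.42 and 8.51 against 10.1 and 9.54 TPM (0.12, adjusted p = 0.373). The ratio of Col4a1 to Col4a2 was 1.27 and 1.28 in Control and 1.75 and 2.05 in CypD OE, above all 6 other libraries. Col4a4 was 2.15 and 2.22 TPM in Control and 0.94 and 1.17 TPM in CypD OE (-0.63, adjusted p = 0.0125, and -0.99 with a pseudocount of 0.1), a call that ended without Control replicate 2 or CypD OE replicate 1 (adjusted p = 0.0575 and 0.064). Col4a5, at 6.85 ± 0.339 against 6.08 ± 0.290 TPM, did not pass (-0.15, adjusted p = 0.279).

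**Figure D4:**
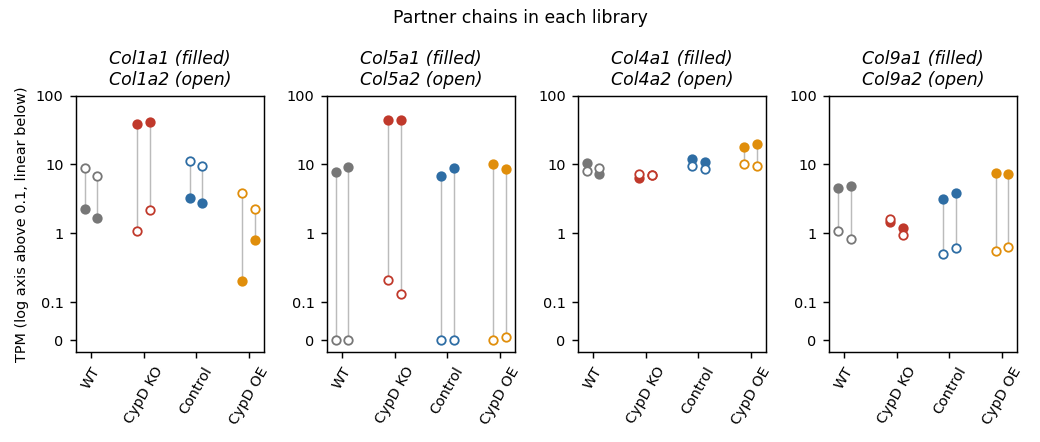
Filled and open points joined by a line give the TPM of 2 partner chains in 1 library, on an axis that is logarithmic above 0.1 TPM and linear below it. Col1a1 lies below Col1a2 in the 6 libraries of the other groups and far above it in both CypD KO libraries, at 35.3 and 18.9 times its level, and Col5a2 lies at or near 0 throughout.

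Among the other chains Col15a1 rose most, from 9.73 and 8.78 TPM in Control to 20.8 and 19.01 TPM in CypD OE (1.03, SE 0.08, adjusted p = 1.92e-04). Col9a1 was 3.13 and 3.87 TPM in Control and 7.48 and 7.16 TPM in CypD OE (0.89, SE 0.13, adjusted p = 0.00231), with a ratio to Col9a2 of 6.26 and 6.34 in Control and 13.6 and 11.2 in CypD OE. Col9a2, at 0.50 and 0.61 against 0.55 and 0.64 TPM, and Col9a3, at 0.94 ± 0.453 against 0.815 ± 0.318 TPM, overlapped between the groups and did not pass (adjusted p = 0.911 and 0.834). Their ratio was 0.397 and 0.984 in Control and 0.529 and 1.08 in CypD OE.

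Falls were seen for Col16a1, Col14a1 and Col8a1. Col16a1 was 13.5 and 15.1 TPM in Control and 5.81 and 7.54 TPM in CypD OE (-1.0, SE 0.12, adjusted p = 9.60e-04). Col14a1 was 2.96 and 3.59 against 0.60 and 0.54 TPM (-1.44, SE 0.17, adjusted p = 8.85e-04, and -2.33 with a pseudocount of 0.1). Col8a1 was 1.25 and 1.47 TPM in Control and 0.15 and 0.03 TPM in CypD OE, a value that rests on few fragments (-1.12, SE 0.17, adjusted p = 0.00238, and -3.01 with a pseudocount of 0.1). All 3 chains were separated between the groups. Means of Col7a1, Col10a1, Col12a1 and Col20a1, which had risen in CypD KO, were 0.915, 0.65, 0.36 and 0.85 TPM in Control and 1.22, 0.665, 0.415 and 0.48 TPM in CypD OE. These chains showed differences of 0.20, 0.014, 0.061 and -0.31 here, none of which passed (adjusted p = 0.494, 0.96, 0.81 and 0.266).

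The 2 comparisons share no library, and 9 chains passed in both. Col1a1, Col4a4, Col8a1 and Col16a1 were higher in CypD KO than in WT and lower in CypD OE than in Control, and Col9a1 and Col15a1 were lower and then higher. Col1a2 and Col14a1 were lower in both, and Col11a2 was higher in both. Opposite signs thus held for 6 of 9 chains, or 66.7%, and for 54.7% of the 3153 genes that passed in both over the whole table. Of the 9, Col4a4 and Col11a2 lost their calls under some alternative fits in both comparisons, and Col15a1 in CypD KO against WT. Whether the 2 differences of a chain differ from each other was not tested, and oxygen differed between the comparisons.

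Control and WT cells differ in oxygen, vector and clone at once, so that these cannot be told apart, and both comparisons with WT reuse the WT libraries. Of the tested chains 1 rose and 1 fell in Control, where 12.1% of all genes rose and 12.1% fell. Col14a1 was 1.98 and 1.51 TPM in WT and 2.96 and 3.59 TPM in Control (0.64, adjusted p = 0.0356), and Col5a3 was 3.61 and 3.13 TPM in WT and 2.02 and 1.91 TPM in Control (-0.56, adjusted p = 0.0288). Leaving out CypD KO replicate 1 or 2 or CypD OE replicate 1 or 2 gave an adjusted p for Col14a1 from 0.0516 to 0.0554, and leaving out WT replicate 1, WT replicate 2, Control replicate 1 and Control replicate 2 in turn gave 0.0596, 0.148, 0.0735 and 0.161. For Col5a3 the same 4 omissions gave 0.125, 0.0627, 0.0864 and 0.109. Col1a1 and Col1a2 had differences of 0.45 and 0.37, which did not pass (adjusted p = 0.175 and 0.374).

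Libraries labelled CypD OE had 3 chains higher and 6 lower than WT, against 14.0% and 13.7% of all genes. Col4a1 (1.01, adjusted p = 0.00471), Col15a1 (0.78, adjusted p = 0.00104) and Col16a1 (-0.92, adjusted p = 0.00211) passed in each alternative fit that tested them. Col9a1 (0.55), Col1a1 (-0.99), Col1a2 (-1.17), Col8a1 (-0.63), Col14a1 (-0.80) and Col27a1 (-0.70) passed with all libraries (adjusted p from 0.0141 to 0.0309), but each lost its call without WT replicate 1, where adjusted p ran from 0.0761 to 0.103. Omission of CypD OE replicate 1 also ended those of Col9a1, Col1a1, Col8a1, Col14a1 and Col27a1, at adjusted p of 0.101, 0.0503, 0.0668, 0.054 and 0.0895. Omission of CypD OE replicate 2 ended those of Col9a1, Col1a2, Col8a1, Col14a1 and Col27a1, at 0.08, 0.0993, 0.123, 0.0658 and 0.0558, and omission of WT replicate 2 those of Col9a1 and Col8a1, at 0.0643 and 0.115. A pseudocount of 0.1 moved the differences of Col1a1, Col8a1 and Col14a1 to -1.95, -2.12 and -1.45.

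The leading chain of a library differed between groups. Col16a1 was highest in both WT and both Control libraries, Col5a1 in both CypD KO libraries, Col15a1 in CypD OE replicate 1 and Col4a1 in CypD OE replicate 2. In WT the order of mean TPM was Col16a1 (13.5), Col15a1 (11.2), Col4a1 (8.87), Col4a2 (8.54), Col5a1 (8.43), Col1a2 (7.95), Col27a1 (7.63) and Col4a5 (6.08). Col16a1, Col15a1 and Col4a1 did not overlap with one another, while Col4a1, Col4a2, Col5a1, Col1a2 and Col27a1 overlapped from each to the next. In CypD KO the order was Col5a1 (44.0), Col1a1 (39.8), Col16a1 (28.4), Col4a5 (10.1) and Col15a1 (9.25), with no overlap between neighbors.

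The chains that were not tested stayed low in all groups. Col3a1, the main partner fibril of type I collagen in soft tissue, did not exceed 0.31 TPM, and the cartilage chains Col2a1 and Col11a1 did not exceed 0.58 and 0.35 TPM. Col6a1, of the beaded filaments around cells, was 0 and 0.10 TPM in WT, 0.09 and 0.12 in CypD KO, 0.02 and 0.12 in Control and 0.04 and 0.08 in CypD OE. Col6a2, its partner, was at 0 in 7 libraries and at 0.02 TPM in CypD KO replicate 2, and Col6a3 was at 0 outside CypD KO, where it was 0.05 and 0.23 TPM. Col18a1, the source of endostatin, was 0 and 0.25 TPM in WT, 0.78 and 0.39 in CypD KO, 0.08 and 1.06 in Control and 0.07 and 0.05 in CypD OE, and overlaps exons of Slc19a1. Col19a1, which lies 5006 bases from Col9a1, reached 0.54 TPM in CypD OE replicate 1. The others were Col24a1, Col6a4, Col6a5, Col6a6, Col8a2, Col17a1, Col23a1, Col25a1, Col26a1 and Col28a1, none over 0.24 TPM.

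Chains leave the cell after proline and lysine hydroxylation, folding and export, and are then trimmed, crosslinked, bound by receptors and degraded. Of 59 genes for these steps outside the chains 37 were tested. In CypD KO against WT 22 rose and 2 fell, with a median of 0.55. Of all genes 30.1% rose and 18.4% fell there, with a median of 0.089. By step, 10 of 21 folding and export genes rose and 1 fell, 5 of 7 processing and crosslinking genes rose and 1 fell, 5 of 5 receptors rose and 2 of 4 degradation genes rose. In CypD OE against Control 6 rose and 17 fell, with a median of -0.27. Of all genes 19.0% rose and 18.3% fell there, with a median of 0.0021. The falls of handling genes comprised 12 folding and export genes, 2 of processing and crosslinking, 2 receptors and 1 of degradation. Control against WT gave 13 higher and 4 lower, where 12.1% of all genes rose and 12.1% fell. CypD OE against WT gave 6 higher and 7 lower of the 37, where 14.0% and 13.7% of all genes did.

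Loxl2, a lysyl oxidase that crosslinks collagen, was low in WT and CypD OE and higher in the other groups. It was 0.70 and 0.59 TPM in WT, 11.6 and 12.3 in CypD KO, 29.3 and 31.3 in Control and 0.52 and 0.34 in CypD OE, with differences of 2.98 in CypD KO and -4.45 in CypD OE (adjusted p = 5.33e-06 and 1.52e-06). Pcolce2, an enhancer of procollagen trimming, and Adamts14, a procollagen N-proteinase, rose in CypD KO by 3.17 and 2.56 (adjusted p = 9.68e-05 and 1.31e-05). The falls in CypD KO were -1.68 for Fkbp10, a collagen chaperone, and -0.51 for Pcolce (adjusted p = 7.50e-05 and 0.00706). P4ha1 and P4ha2, catalytic subunits of prolyl 4-hydroxylase, had differences of -1.89 and -2.10 in CypD OE (adjusted p = 1.91e-06 and 2.32e-06). P4ha1 was 39.6 and 40.6 TPM in WT, 156 and 150 in CypD KO, 123 and 132 in Control and 34.6 and 32.7 in CypD OE. Loxl3, the collagen receptor subunit Itga1 and the prolyl 3-hydroxylase P3h2 rose in CypD OE by 1.23, 1.10 and 1.08 (adjusted p = 5.56e-04, 2.73e-04 and 1.31e-04).

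**Figure D5:**
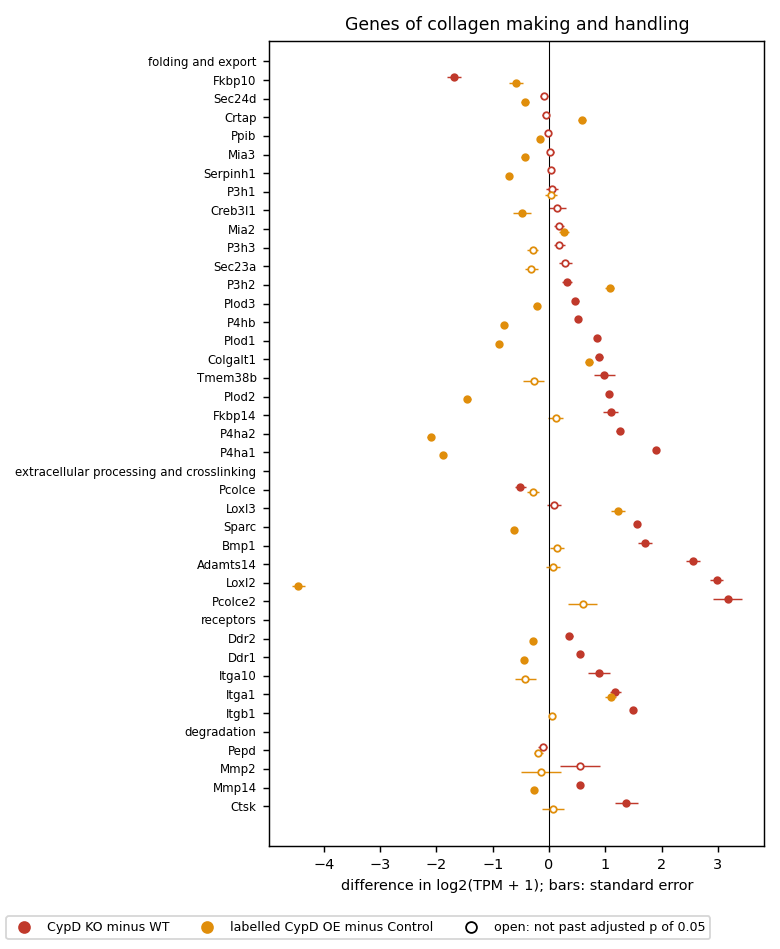
Points give the difference in log2(TPM + 1) with its standard error for the 37 tested genes of collagen making and handling, ordered within each step by the CypD KO difference, and open points did not pass an adjusted p of 0.05. Most filled CypD KO points lie above 0 (22 against 2) and most filled CypD OE points below 0 (17 against 6), with Loxl2 at 2.98 and -4.45.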

How the data were processed

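The deposited table gave TPM per gene for 8 libraries of B16F10 cells, an established mouse melanoma line. Per the labels and the paper's methods, the authors prepared total RNA libraries with ribosomal RNA removed, sequenced read pairs of 150 bases, used Cutadapt 3.4 for trimming and STAR 2.7.8a for alignment to GRCm39, and obtained TPM from RSEM 1.3.1 (tool versions from the submitters' processing notes, which also name DESeq2 1.26.0). TPM are shares of a library, so 1 very abundant gene lowers all others.

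From the TPM, log2(TPM + 1) was fitted with limma 3.58.1 in R 4.3.3, with 1 mean per group, all 8 libraries and a trended prior, over the 13526 genes that reached 1 TPM in 2 or more libraries. Adjusted p are Benjamini-Hochberg values over all these genes, two-sided, with a threshold of 0.05. The procedure was tested on simulated data, with independent normal residuals of each gene's own spread. Far fewer genes were changed there than were called here, and the simulation cannot show how technical replicates would act. The TPM steps of low genes gave about 25700000 to 29800000 fragments per library. Fragment length and step size were chosen to bring as many low values as possible within 0.15 of a whole fragment number. The share reached was 83.4% to 86.3%, which is the quantity fitted and not a separate check. Library pairs of a group had correlations of 0.983 to 0.985 across genes. Alternatives were a pseudocount of 0.1, no filter, at least 5 TPM, median-of-ratios scaling, the 4 libraries of a comparison alone, a replicate block, no trend and omission of each library, 15 in all.

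Every tested chain was named, with library values for those past the threshold, their partners and a preset few. Of the handling genes the 3 largest changes in each direction past the threshold were named. The chains, classes, handling genes, markers and motifs were chosen with earlier results of these data known. Gene positions are from GENCODE M39 on GRCm39, and promoter windows from RefSeq on GRCm38.p6, and coordinates of the builds were not mixed. Strand use in counting is not given in the sources used here.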

Additional observations from a re-analysis of the deposited data

How the results depend on the processing

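Of 16 chains called in CypD KO against WT 12 passed under all 15 alternatives that tested them, as did 7 of 11 in CypD OE against Control, 0 of 2 in Control against WT and 3 of 9 in CypD OE against WT; the cause of the losses was not tested. With at least 5 TPM fewer chains enter, and counts were 4 higher and 4 lower in CypD KO. They were 3 higher and 3 lower in CypD OE against Control, and 0 and 0 in Control against WT. Without a filter 3 chains were lower in CypD KO, 0 lower in Control and 3 lower in CypD OE against WT. In Control against WT the higher count was 0 with a pseudocount of 0.1, 0 with the replicate block and 3 without trend. Fits of the 4 libraries alone gave 0 and 0 chains and 998 and 983 genes there, and 2 chains lower in CypD OE against WT.

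Omitting 1 library gave 3 to 5 chains lower in CypD KO, 2 to 5 higher in CypD OE against Control, 0 to 1 higher and 0 to 1 lower in Control, and 1 to 6 lower in CypD OE against WT. Over all genes it gave 939 to 1466 higher and 983 to 1434 lower in Control, and 1075 to 1785 higher and 1128 to 1773 lower in CypD OE against WT. Signs of uncalled chains turned. In CypD KO Col9a2 ran from -0.0077 to 0.42, and in CypD OE against Control Col9a2 from -0.014 to 0.088 (-0.0037 without CypD OE replicate 2), Col9a3 from -0.33 to 0.15 (0.092 without CypD OE replicate 2), Col10a1 from -0.065 to 0.093 (-0.051 without CypD OE replicate 1) and Col12a1 from -0.046 to 0.17. Without a change of sign or call, omissions moved Col5a1 from 0.077 to 0.40, Col7a1 from 0.055 to 0.35 and Col27a1 from -0.44 to -0.12 in CypD OE against Control.

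Replicates share only a number: deviations of same-numbered libraries correlated at 0.108 between WT and CypD KO and at -0.002 between Control and CypD OE. With the replicate block 9 chains were higher and 4 lower in CypD KO, and 5 and 6 in CypD OE against Control. Other settings than omission ended calls of Col4a4 (adjusted p from 0.0505 to 0.0699), Col11a2 (0.0512 to 0.106), Col15a1 (0.0587 to 0.0747) and Col27a1 (0.0797) in CypD KO and of Col11a2 (0.0555 and 0.0747) in CypD OE against Control. Low chains such as Col8a1 and Col14a1 are limited by few fragments.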
